A study of Caenorhabditis elegans with 8 samples.

Results

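The genes of the Caenorhabditis elegans eggshell and the yolk receptor were followed in starved first-stage (L1) larvae of 3 chromatin mutants. The set was named by symbol as cbd-1, chs-1, egg-1, egg-2, egg-3, cpg-1, cpg-2, perm-2, perm-4 and rme-2. Transcripts were matched to symbols through the RefSeq gene table of assembly WBcel235, and each gene was followed through the transcript whose base means in the 3 deposited tables added up to the most. Of the 10 genes, 9 had a transcript in the tables, out of 39875 genes with a matched transcript in all. The 1 RefSeq accession given for egg-3 was not among the transcripts listed, so egg-3 was not analysed here.

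The wild type was strain N2, and the mutants were spr-5 (by101), met-2 (n4256) and the double mutant spr-5 (by101); met-2 (n4256), with 2 libraries each. spr-5 encodes a demethylase of histone H3 lysine 4, and met-2 encodes a methyltransferase of histone H3 lysine 9. Each library was made from total RNA of 200 to 250 whole L1 larvae, pooled, that had hatched overnight in M9 buffer without food at 21 to 22 °C, from parents fed OP50 bacteria at 20 °C. All groups shared the starvation, and no label says whether the libraries of a group came from separate cultures, so the p-values measure only the spread between these libraries, which may be technical. In RNA of whole larvae, a change in the number of cells of a type and a change in RNA per cell cannot be told apart.

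The eggshell of C. elegans is built in layers by the oocyte and the newly fertilized egg. The outer vitelline layer holds CBD-1, PERM-2 and PERM-4, the middle layer holds chitin made by the chitin synthase CHS-1, and the inner layer holds the chondroitin proteoglycans CPG-1 and CPG-2. EGG-1 and EGG-2 are receptors on the oocyte surface that sperm need for entry, and RME-2 is the receptor by which oocytes take up yolk. These genes are known for their expression in the adult germline during oogenesis, whereas an L1 larva carries only a pair of primordial germ cells beside its somatic tissues.

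None of the 9 genes passed an adjusted p of 0.05 in any of the 3 mutants, and their values did not share a direction. In the double mutant, cbd-1 had the highest log2 fold change of the set, 2.09, and perm-4 the lowest, -4.07. By the DESeq2 Wald test of the authors' deposited tables, 0 of 9 genes were called in spr-5, where 0.0101% of all tested transcripts were called. In met-2 it was 0 of 7 with an adjusted p, against 0.0647% of the 13914 transcripts with one. In the double mutant it was 0 of 7, against 0.709% of 12272. The share for spr-5 is over all 29720 transcripts with a p-value, so the 3 shares have unlike denominators. With backgrounds this low, counts of 0 lie near these shares. At an unadjusted p under 0.05, 1 of 9 was lower in spr-5 (perm-4), 0 of 9 passed in met-2, and 1 was higher (cbd-1) and 1 lower (perm-4) in the double mutant. Over all transcripts with a p-value, 1.15% passed in the spr-5 table (0.283% lower), 1.42% in the met-2 table and 2.82% in the double-mutant table (1.74% higher and 1.07% lower).

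By sign alone, and with rme-2 counted by the sign of very few reads, 3 genes lay above 0 and 6 below in spr-5, and 5 above and 4 below in both met-2 and the double mutant. Over all transcripts with a p-value, 54.4%, 50.97% and 43.2% lay above 0 in the same order. The 9 genes had a median log2 fold change of -0.17 in spr-5. Their median was 0.05 for met-2 and 0.28 for the double mutant. Beside these, the medians over all transcripts were 0.06, 0.01 and -0.17, and over transcripts whose base mean reached 10 they were -0.0095, -0.01 and 0.02. In the double mutant the median of the set depended on which genes were counted. It was 0.82 over the 7 genes whose base mean reached 10, and -0.66 over the 7 genes left without egg-1 and egg-2. That -0.66 is the listed value of rme-2, whose reads are too few to show a fold change, so no sign is read from it.

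The deposited tables hold no value for a single library. They give a base mean, which averages scaled counts across all 4 libraries compared, and a log2 fold change, and these were combined into the N2 and mutant levels that they imply. All levels below are such implied scaled counts, without an error of their own. The log2 fold changes look shrunken toward 0, most where reads are few, as the SE of 0.63 for rme-2 in spr-5 at a base mean of 1.27 shows. Where they are, the implied N2 and mutant levels lie closer together than the group means did. Levels per kilobase and sums of markers carry the same limit. The N2 libraries enter all 3 tables, and their level was therefore implied 3 times for each gene. For the 7 genes above a base mean of 10, the highest of these N2 levels was 1.04 to 1.28 times the lowest. Over 6266 transcripts whose base mean reached 50 in every table, the N2 level in the double-mutant table was at the median 0.896 times that in the spr-5 table, a gap in scale between separately normalized tables.

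**Figure D1:**
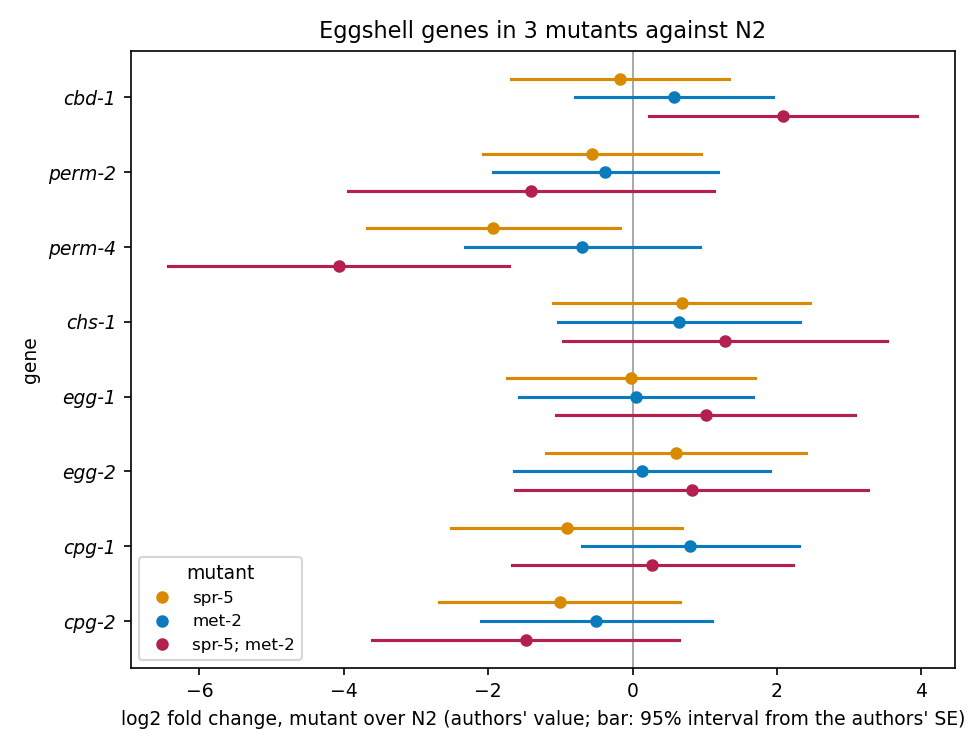
Log2 fold changes of 8 eggshell genes (rows) in the authors' deposited tables, for the 3 mutants over N2; points are the authors' values and bars are 95% intervals from the authors' standard errors. The bars of perm-4 in spr-5 and in the double mutant and of cbd-1 in the double mutant do not reach 0, and all others cross it; rme-2 is left out for its few reads.

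Among the proteins of the vitelline layer, cbd-1 (NM_069744) encodes a chitin-binding protein that is needed for this layer to form. The implied level of cbd-1 was 236 in N2 and 209 in spr-5 in the first table, 234 in N2 and 349 in met-2 in the second, and 259 in N2 and 1100 in the double mutant in the third. The double mutant thus stood apart from the other groups, which lay between 209 and 349. In the double mutant, cbd-1 stood at 2.09 on the log2 scale in the authors' deposited table (SE 0.95, unadjusted p 0.0276, adjusted p 0.639), with a 95% interval from 0.23 to 3.94. For the single mutants the authors' deposited tables listed -0.17 (SE 0.77, spr-5) and 0.58 (SE 0.70, met-2). By p-value, cbd-1 was at position 363 among the transcripts with higher values in the double mutant.

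perm-4 (NM_067640) encodes another protein of the vitelline layer, required for the permeability barrier of the egg. Its implied level was 59.6 in N2 and 15.7 in spr-5, 58.4 in N2 and 36.1 in met-2, and 57.6 in N2 and 3.42 in the double mutant. N2 was the higher group in every table, and the double mutant was the lowest of the mutants. In the authors' deposited table, the double mutant stood at -4.07 on the log2 scale for perm-4 (SE 1.204, unadjusted p 0.000717), with a 95% interval from -6.43 to -1.71. Its adjusted p of 0.0758 missed the threshold, and it was 0.171 when the Benjamini-Hochberg method was applied to every p-value of the table, filtered or not. perm-4 was at position 16 by p-value among the transcripts with lower values, of which 9 were called. In spr-5 the authors' deposited table gave -1.93 (SE 0.89, unadjusted p 0.0308), with a 95% interval from -3.67 to -0.18, and in met-2 it gave -0.69 (SE 0.83). The 3 comparisons share the N2 libraries, so the values of perm-4 below 0 in all of them are not independent.

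perm-2 (NM_067641) encodes the third of these vitelline-layer proteins, and few reads fell on it. Summed over the 4 libraries of a comparison, its scaled counts were 16.4, 18.01 and 13.1 in the tables of spr-5, met-2 and the double mutant. The authors' deposited tables gave perm-2 log2 fold changes of -0.57 (SE 0.77), -0.38 (SE 0.80) and -1.41 (SE 1.29) in this order. All 3 lay below 0, as for perm-4, and every 95% interval included 0. perm-2 and perm-4 are both on chromosome IV in WBcel235, on opposite strands, with no coding gene annotated to overlap perm-4. perm-2 overlaps C44B12.6 there, and since the use of strand in counting is not given in the sources used here, the reads of perm-2 are uncertain. The 95% intervals of cbd-1 and perm-4 in the double mutant did not overlap, although CBD-1 and the PERM proteins belong to the same layer. These genes held the highest and lowest values of the set there, so the gap partly follows from the choice of this pair. Neither passed the authors' DESeq2 test after adjustment (adjusted p 0.639 for cbd-1 and 0.0758 for perm-4). The difference between cbd-1 and perm-4 was not tested, so no opposite change within the layer is read from it.

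**Figure D2:**
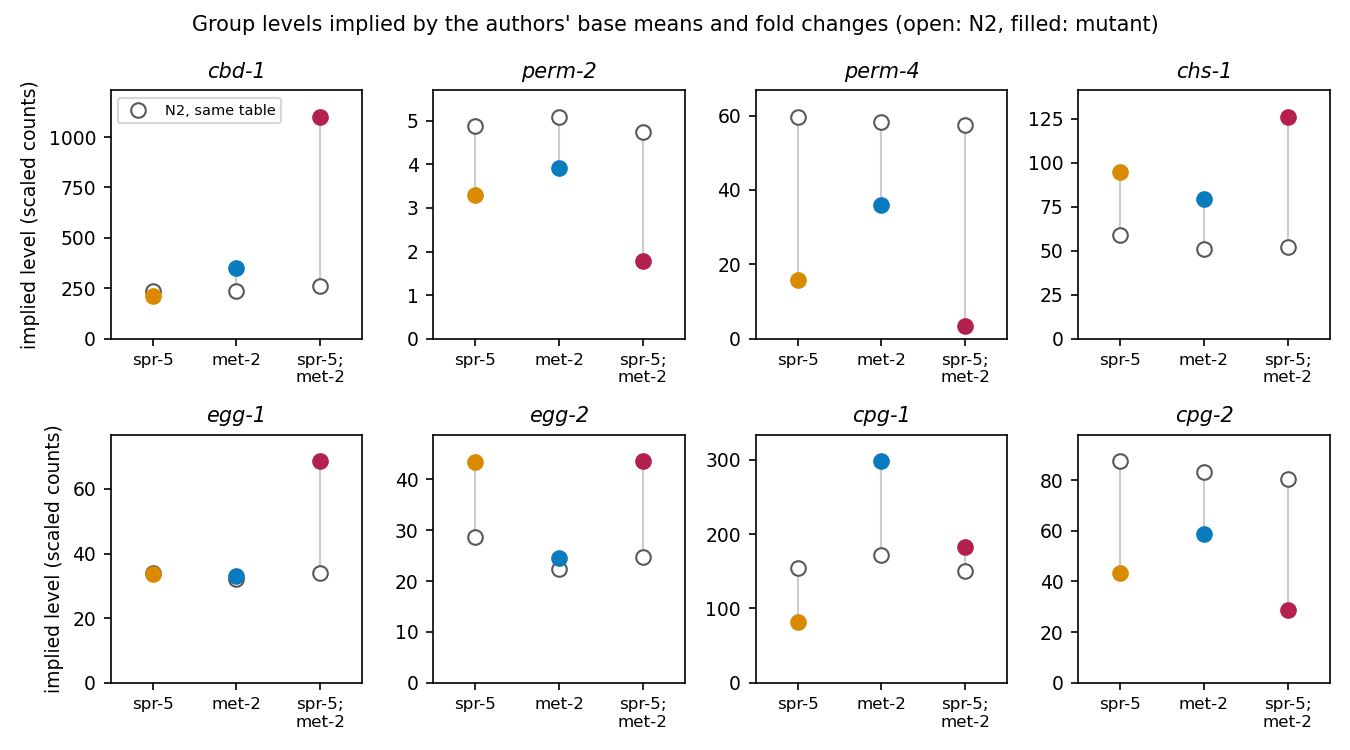
Implied levels of 8 eggshell genes in scaled counts (vertical axes, linear, from 0 and scaled per gene), for N2 (open) and the mutant (filled) of each deposited table; no error is available for single groups. The double-mutant point is far above N2 for cbd-1 (1100 against 259) and far below it for perm-4 (3.42 against 57.6), and the 3 open points of a gene lie close together.

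The chitin synthase gene chs-1 (NM_059712), whose product makes the chitin of the middle layer, had an implied level of 59.1 in N2 and 94.5 in spr-5. The level of chs-1 was 50.8 in N2 and 79.5 in met-2 in the second table, and 51.9 in N2 and 126 in the double mutant in the third. Each mutant lay above N2 of its own table, and none of the differences passed the test. The authors' deposited tables gave chs-1 log2 fold changes of 0.68 (SE 0.91), 0.65 (SE 0.86) and 1.28 (SE 1.15) in spr-5, met-2 and the double mutant. The 95% interval of chs-1 in the double mutant, -0.97 to 3.52, leaves room for a large rise as well as for none.

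egg-1 (NM_065836) and egg-2 (NM_066136) encode paralogous receptors with repeats of the low-density lipoprotein receptor type, of 551 and 548 residues. The implied level of egg-1 was 34.1 in N2 and 33.6 in spr-5, 32.0 in N2 and 33.0 in met-2, and 33.9 in N2 and 68.5 in the double mutant. For egg-2 it was 28.7 in N2 and 43.4 in spr-5, 22.4 in N2 and 24.5 in met-2, and 24.7 in N2 and 43.6 in the double mutant. Both genes thus had a double-mutant level above N2, whereas in met-2 they were close to it. For the double mutant the authors' deposited table listed log2 fold changes of 1.02 (SE 1.06) for egg-1 and 0.82 (SE 1.25) for egg-2, neither past the test. How reads that fit both paralogs were counted is not given in the sources used here, and egg-1 overlaps B0244.9 in WBcel235, so both values are uncertain.

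The inner layer is represented by cpg-1 (NM_001025988) and cpg-2 (NM_066150), which encode chondroitin proteoglycans with chitin-binding domains. The implied level of cpg-1 was 154 in N2 and 82.0 in spr-5, 171 in N2 and 298 in met-2, and 151 in N2 and 183 in the double mutant. cpg-1 had the widest gap of the set between the log2 fold changes of the single mutants, below N2 in spr-5 and above it in met-2. The authors' deposited tables gave cpg-1 log2 fold changes of -0.91 (SE 0.82), 0.80 (SE 0.77) and 0.28 (SE 0.99) in spr-5, met-2 and the double mutant. None passed the test, and the difference between the single mutants was not tested. A second transcript of cpg-1 (NM_001025989) is listed with a base mean of 0 in every table, and how reads shared by transcripts were assigned is not given in the sources used here.

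cpg-2 lay below N2 in all 3 mutants. Its implied level was 87.4 in N2 and 43.3 in spr-5, 83.4 in N2 and 58.8 in met-2, and 80.4 in N2 and 28.8 in the double mutant. The authors' deposited tables gave cpg-2 log2 fold changes of -1.01 (SE 0.85), -0.50 (SE 0.81) and -1.48 (SE 1.08), none of them past the test. The 95% interval in the double mutant was -3.61 to 0.64 for cpg-2 and -1.67 to 2.22 for cpg-1, and these intervals overlapped.

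The yolk receptor gene rme-2 (NM_068414) had almost no reads in any group. Its scaled counts summed over the 4 libraries of a comparison were 5.07, 2.23 and 2.18 in the tables of spr-5, met-2 and the double mutant. No fold change is read from rme-2, since reads this few cannot show one. RefSeq gives 2 transcripts for rme-2, of which 1 is listed in the tables, so the level of the gene as a whole may be understated.

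**Figure D3:**
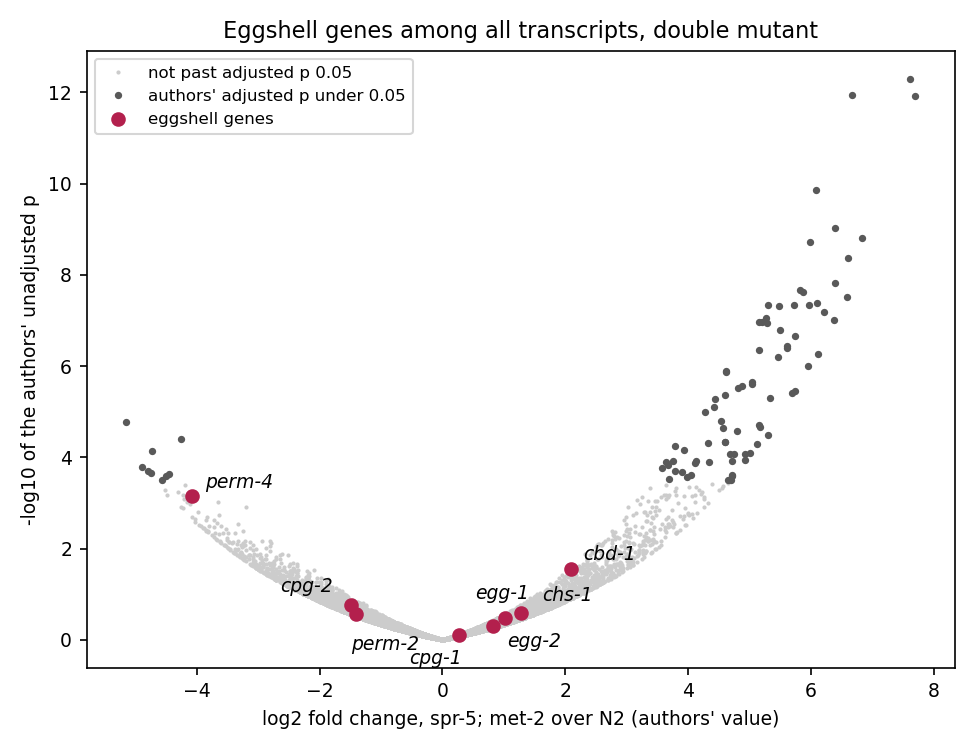
Log2 fold change of each transcript in the double mutant over N2 (horizontal) and -log10 of its unadjusted p (vertical), both from the authors' deposited table; dark points passed an adjusted p of 0.05 and red points are 8 eggshell genes. perm-4 (-4.07) lies just under the called transcripts on the lower side, cbd-1 (2.09) lies well under those on the higher side, and the other eggshell genes lie near the base of the plot.

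Levels can be compared between genes per length of exon, taken from the Ensembl annotation of WBcel235. In N2, the median implied level per kilobase was 81.8 for cpg-1, 55.8 for cbd-1, 52.8 for perm-4 and 48.4 for cpg-2. It was 18.9 for egg-1, 14.0 for egg-2, 12.1 for chs-1, 6.65 for perm-2 and 0.233 for rme-2. Over the 3 tables the N2 level per kilobase of egg-2 ranged from 12.7 to 16.2 and that of chs-1 from 11.8 to 13.8, so that these neighbours in the order overlapped. In the double mutant the order per kilobase differed. cbd-1 led with 261, followed by cpg-1 with 96.7 and egg-1 with 38.2, and perm-4 stood at 3.09, next to perm-2 with 2.43.

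In the annotation the genes are spread over several chromosomes. Of the 10, 4 are on chromosome III and 4 on chromosome IV, with chs-1 on I and egg-3 on II, and none is on X. The encoded proteins range from 203 residues for PERM-2 to 1322 for CHS-1 and 1319 for CBD-1.

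Further genes of eggshell assembly and of the lipid-rich permeability barrier gave no call. Of 31 matched genes of 34 listed, 0 were called in any mutant by the authors' DESeq2 test. That lies near the 0.0101%, 0.0647% and 0.709% of all tested transcripts called in spr-5, met-2 and the double mutant. In the double mutant 14 lay above 0 and 15 below, and their median was -0.05 on the log2 scale, against -0.17 over all transcripts and 0.02 over those whose base mean reached 10, as 27 of the 31 did. At an unadjusted p under 0.05, 0 passed in spr-5 and met-2, against 1.15% and 1.42% of all transcripts with a p-value. In the double mutant 1 of the 29 with a p-value passed, against 2.82%. That gene was egg-4 (NM_058868), which encodes a pseudophosphatase that binds the kinase MBK-2 at the oocyte cortex together with EGG-3. The implied level of egg-4 was 29.7 in N2 and 47.7 in spr-5, 23.2 in N2 and 20.9 in met-2, and 31.4 in N2 and 219 in the double mutant. For egg-4 the authors' deposited table listed 2.81 on the log2 scale in the double mutant (SE 0.98, unadjusted p 0.00428, adjusted p 0.240). The paralog egg-5 (NM_058915) had 0.87 (SE 1.06) in the authors' deposited table, and reads shared between these paralogs make both uncertain.

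The yolk proteins, which RME-2 takes into oocytes, gave the 1 call among the pathway lists. vit-5 (NM_076188) encodes a vitellogenin that the adult intestine makes and secretes. The implied level of vit-5 was 218 in N2 and 73.7 in spr-5, 217 in N2 and 213 in met-2, and 203 in N2 and 10.7 in the double mutant. vit-5 fell in the double mutant, with -4.25 on the log2 scale per the authors' deposited table (SE 1.04, adjusted p 0.00947). The authors' deposited tables gave vit-5 -1.57 (SE 0.77, unadjusted p 0.0421) in spr-5 and -0.03 (SE 0.86) in met-2. For vit-4 (NM_076211) the authors' deposited table listed -3.66 in the double mutant (SE 1.35, adjusted p 0.310). vit-4 and vit-5 belong to a family of near-identical genes and may share reads. Of the 4 matched vitellogenin genes of 6 listed, vit-2 had a base mean of 2.72 in the double-mutant table, and the vit-6 transcript was listed at 0 in all tables.

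The machinery that recycles the yolk receptor had 0 of 13 matched genes called in each mutant by the authors' DESeq2 test, and 0 at an unadjusted p under 0.05. Over all transcripts, 0.0101%, 0.0647% and 0.709% were called in spr-5, met-2 and the double mutant, and 1.15%, 1.42% and 2.82% passed unadjusted. Counts of 0 in lists this short lie near these shares. In the double mutant 9 lay above 0 and 3 below, with a median of 0.35. Of 8 matched sperm factors that act in fertilization, 0 were called and 0 passed an unadjusted p of 0.05 in any mutant, again near the shares over all transcripts. Their double-mutant median was -0.05. Among 14 matched regulators of oocytes, 0 were called by the authors' DESeq2 test. At an unadjusted p under 0.05 the double mutant had 4 above N2 and 1 below, against 1.74% and 1.07% of all transcripts with a p-value. The median of their 13 measured members there was 0.91, beside the same -0.17 and 0.02. mex-5 (NM_070165), an RNA-binding protein that patterns the embryo, was listed at 2.77 on the log2 scale (SE 0.99, adjusted p 0.266) by the authors' deposited table. gld-1 (NM_059742), a translational repressor in the germline, had 2.77 (SE 1.04, adjusted p 0.328) in the same deposited table of the authors. The others in the double mutant were oma-2, puf-5 and, on the lower side, puf-3, named here after their values were seen. In met-2, 1 regulator passed this unadjusted threshold by the authors' DESeq2 test. It was puf-11, below N2 with -1.74 (SE 0.81, unadjusted p 0.0311), also named after its value was seen.

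**Figure D4:**
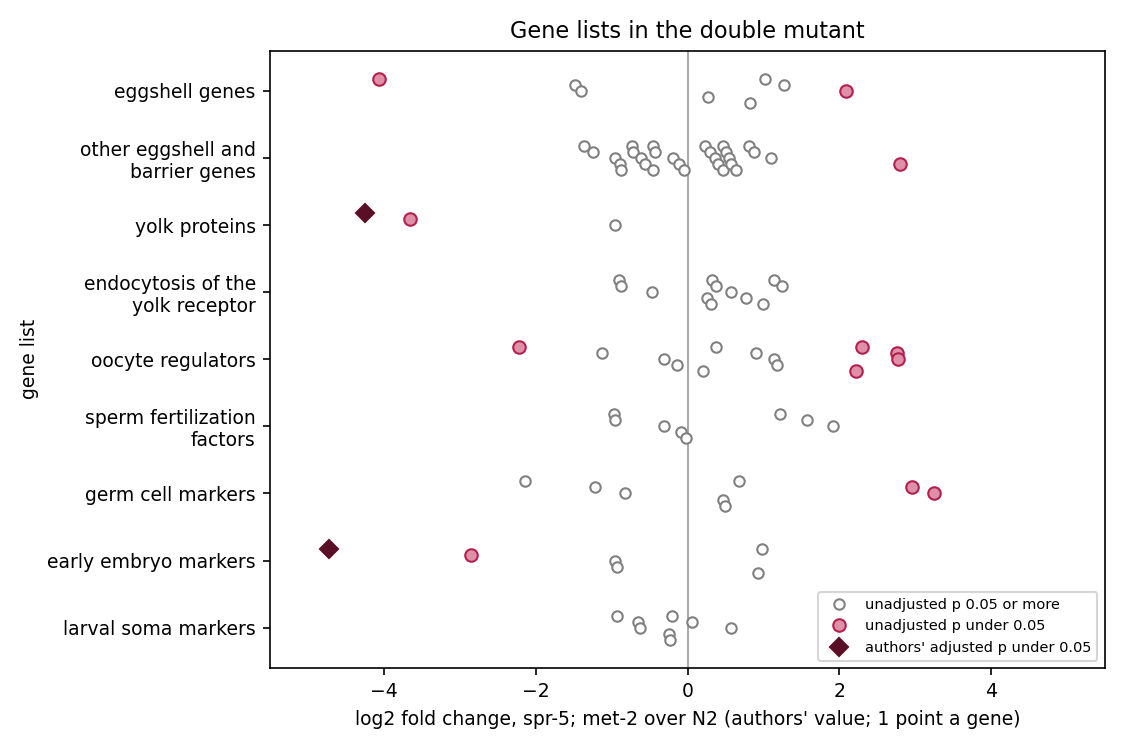
Log2 fold changes in the double mutant over N2 (horizontal, authors' values, 1 point a gene) for the eggshell genes and for other gene lists (rows); open points have an unadjusted p of 0.05 or more, shaded points an unadjusted p under 0.05, and diamonds an adjusted p under 0.05. The eggshell genes spread to both sides of 0, from perm-4 at -4.07 to cbd-1 at 2.09, and the diamonds are vit-5 (-4.25) and sdz-28 (-4.73).

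Markers of other cells and stages were read in the same comparisons, and most did not pass the test. The summed implied level of 8 germ cell markers was 237 in N2 and 1599 in the double mutant, 224 in N2 and 534 in met-2, and 225 in N2 and 311 in spr-5. Of these 8, 5 lay above 0 in the double mutant, and 2 were higher at an unadjusted p under 0.05, htp-3 (NM_059057) with 3.25 (SE 0.96, adjusted p 0.0768) and glh-1 (NM_059562) with 2.96 (SE 0.97, adjusted p 0.168), per the authors' deposited table. Over all transcripts with a p-value, 43.2% lay above 0 in the double mutant, and 1.74% were higher at that unadjusted threshold. Of the 8, 0 were called by DESeq2, and the listed pgl-1 transcript had a base mean of 0.817. Together glh-1 and htp-3 made up 187 of the N2 sum and 1542 of the double-mutant sum, and the other 6 markers summed to 49.8 and 56.5. In the met-2 table glh-1 and htp-3 made up 167 in N2 and 465 in met-2, and the other 6 summed to 56.6 and 68.9. For spr-5 these values were 163 and 237, and 62.4 and 74.7. In met-2, glh-1 alone of the 8 passed an unadjusted p of 0.05, with 1.68 (SE 0.72, unadjusted p 0.0198) by the authors' DESeq2 test, against 1.42% of all transcripts. Among these 6 in the double mutant, meg-1 and nos-2 were listed at -2.14 (SE 1.36) and -1.23 (SE 1.26) by the authors' deposited table, on base means of only 6.27 and 2.10. pgl-1, with few reads, also lay below 0, at -0.82. nos-1 (0.67, SE 1.22), xnd-1 (0.49, SE 1.17) and pgl-3 (0.47, SE 1.19) lay above 0, so the 6 shared no direction. These genes were named after their values were seen. The part of germ cell RNA in the value of cbd-1 was not tested.

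The summed implied level of 7 matched early embryo markers was 188 in N2 and 100.2 in the double mutant, and it was 197 and 192 in the spr-5 table and 190 and 178 in that of met-2. Of these, sdz-28 (NM_061791), a gene transcribed in the early embryo, fell in the double mutant, with -4.73 per the authors' deposited table (SE 1.19, adjusted p 0.0155). tbx-38 (NM_067125), a T-box factor of the early embryo, was listed at -2.85 by the authors' deposited table (SE 1.303, adjusted p 0.650). pes-10 had a base mean of 0 there and so no fold change. By sign, 2 embryo markers lay above 0 in the double mutant and 4 below. Those above were end-1 with 0.98 (SE 1.21) and med-2 with 0.93 (SE 1.20) in the authors' deposited table, named after their values were seen. Without sdz-28 the embryo markers summed to 76.5 in N2 and 96.0 in the double mutant, so that the lower sum rested on this 1 gene. In all, 8 matched markers of the adult hermaphrodite soma, of which 4 are the vitellogenin genes, summed to 790 in N2 and 417 in the double mutant, of which vit-5 made up 203 and 10.7. In the tables of spr-5 and met-2 these adult markers summed to 876 and 609, and to 837 and 689. Most of every such sum came from lim-7 (NM_059267), with base means of 572, 522 and 477 for spr-5, met-2 and the double mutant. Its log2 fold changes by the authors' DESeq2 test were -0.27 (SE 0.78), -0.36 (SE 0.71) and -0.47 (SE 1.00), and none passed. These sums therefore speak mainly for lim-7, which was named after its values were seen. The adult cuticle collagen col-19 had base means of 0.219, 0.465 and 1.83 in the 3 tables, in the same order as above. perm-4 and cpg-2 had their lowest levels in the double mutant. So did sdz-28 and vit-5, which were the called genes of their lists, whereas end-1 and med-2 lay above 0 there. The part of embryonic or maternal RNA in the values of perm-4 and cpg-2 was not tested. Except for hlh-1, with a base mean of 0 where the double mutant was compared, the matched markers of larval soma had reads in every comparison. In the double mutant 4 of the 9 had a base mean under 10. The 9 matched ones, among them the body-wall myosin gene unc-54 and the intestinal factor elt-2, had 0 calls by DESeq2 and 0 at an unadjusted p under 0.05. Over all transcripts with a p-value, 1.15%, 1.42% and 2.82% passed the latter in spr-5, met-2 and the double mutant, and counts of 0 lie near these shares. The median of the larval markers in the double mutant was -0.23, over the 8 with a fold change.

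The genes nearest to the median pattern of the set were sought among 9565 genes whose base mean reached 10 in all tables, by the Euclidean distance over the 3 log2 fold changes. They were mrpl-30 (distance 0.02), M142.8, ZK131.11, pdi-2 and dac-1 (distance 0.06). In the authors' deposited tables mrpl-30 had -0.19, 0.05 and 0.28 in spr-5, met-2 and the double mutant. This median pattern is close to 0 in all mutants and does not resemble cbd-1 or perm-4.

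What the comparisons could detect was limited by their standard errors. For the 9 genes, the SE of the log2 fold change was 0.63 to 0.92 for spr-5, 0.58 to 0.90 for met-2, and 0.95 to 1.29 for the double mutant. The smallest change called in the double mutant was 3.57 in size. The average library, as the sum of all base means of a table, held 5216667 scaled counts for spr-5 against N2, 4831475 for met-2 against N2, and 4969238 where the double mutant was compared. As a check of the labels, the authors' deposited tables listed the spr-5 transcript at 0.90 (SE 0.74) in its own mutant and the met-2 transcript at -0.43 (SE 0.69) in its own, on the log2 scale. Neither passed the test, and since a mutant allele can still be transcribed these levels do not check the labels.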

How the data were processed

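RNA-seq of 8 samples in 4 groups was deposited as 3 tables of 50832 RefSeq transcripts, 1 for each mutant against N2. Per the submitters' processing notes, FastQC, Trimmomatic, featureCounts, DESeq2 (version 2.11.40.2) and build ce10 were used. The aligner, the gene models and whether strand was used are not given in the sources used here. The tables have no headers. From their values, the authors' deposited columns are the base mean (a signal, the mean of scaled counts), the log2 fold change and its standard error, their ratio (the Wald score), the p-value and the adjusted p-value. Many transcripts with few reads have no adjusted p-value. No values of single samples were given, and the number of unused columns of sample values was 0.

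Symbols came from RefSeq (WBcel235), which matched 46074 transcripts (90.6%). That build differs from ce10, so no coordinates are printed. Implied levels solve the base mean as the average of N2 and mutant, with the authors' log2 fold change as their ratio. Intervals (95%) take the authors' standard errors as those of a normal distribution. Benjamini-Hochberg adjustment was recomputed with numpy 2.4.6 and tested on simulated data. The formula of the implied levels was run on exact fold changes of simulated group means. That run checks the arithmetic only and says nothing about levels implied by the authors' fold changes. Calls used the authors' adjusted p under 0.05, alternatives are given in the closing section, and no test over a list was made. Named genes are all members, up to 2 genes a list with the smallest unadjusted p under 0.05 in the double mutant, and the 5 genes nearest to the median pattern. The members and lists were chosen with earlier results of these data known.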

Additional observations from a re-analysis of the deposited data

How the results depend on the processing

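No paired analysis was possible because the files list comparisons only, with neither replicate numbers nor single libraries. For this reason no library could be left out and no other count model could be run. The count of 0 called genes in each mutant was also 0 with the Benjamini-Hochberg method applied anew to every p-value. An adjusted p under 0.01, a minimum base mean of 10 and leaving out egg-1 and egg-2 cannot add a call to 0, and the transcript of largest base mean in each table was the one already used, so these say nothing about stability. An unadjusted p under 0.05 gave 1 for spr-5 and 2 for the double mutant, by the looser threshold itself, and 0 in met-2. With the recomputed adjustment, perm-4 in the double mutant had a Benjamini-Hochberg adjusted p of 0.171, with more transcripts adjusted over. The median log2 fold change without egg-1 and egg-2 was -0.57 for spr-5, -0.35 for met-2 and -0.66 for the double mutant, so that its sign turned in met-2 and the double mutant, where egg-1 and egg-2 lie above 0. The values -0.35 and -0.66 are those of rme-2, and -0.57 is that of perm-2, both with few reads. The turn in sign therefore rests on rme-2 and is not a result about the set. Over genes whose base mean reached 10 the medians were -0.17, 0.13 and 0.82. A second transcript could not be tried for any gene, since that of cpg-1 has no reads. Depth limits perm-2 and rme-2 most.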
